A study of Mus musculus with 6 samples.

Results

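The mitochondrial ribosomal protein genes were taken from the counts table as every row whose symbol starts with Mrpl or Mrps, leaving out pseudogene symbols that contain -ps. The rule found 78 genes of 21960 in the table and left out 0 pseudogene symbols. All 78 passed the filter on low counts and were among the 11800 genes tested. By the uniform names of ribosomal proteins, 51 of them encode proteins of the large subunit and 26 proteins of the small subunit. The remaining gene, Mrps36, was not placed in either subunit, since its product is now known as a component of the alpha-ketoglutarate dehydrogenase complex.

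Mitochondria carry their own ribosome, which makes the few proteins that mitochondrial DNA encodes, all of them core subunits of oxidative phosphorylation complexes. Its ribosomal RNAs come from mitochondrial DNA, whereas its proteins are encoded by nuclear genes spread over many chromosomes, made in the cytosol and imported. Some of these proteins descend from bacterial ribosomal proteins and others were gained in the mitochondrial lineage, and the large subunit sits at the inner membrane, into which the nascent chains are inserted.

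RNA-Seq was carried out on 3 mock and 3 p140Cap libraries of TuBo cells, an epithelial mammary carcinoma line derived from BALB/c-MMTV-NeuT mice (Balb-NeuT in the labels), which carry an activated rat HER2 transgene under the mouse mammary tumor virus promoter. Both groups are on this background and the mock cells are labelled wild type. The p140Cap cells overexpress the adaptor protein p140Cap (gene Srcin1) from a pBabe-puro retrovirus, were selected with puromycin, and are, per the methods, a pool of single-cell clones. Effects of p140Cap and of the picking of clones therefore cannot be told apart. The labels name the samples cell lines while the series design names them mice, and neither says how far apart the replicate cultures were grown, so p-values measure the spread between these libraries, which may be technical.

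Total reads were 33058719 to 75506562 in the mock and 13770385 to 15364850 in the p140Cap libraries, so depth and group cannot be told apart. Values are CPM, counts scaled to a common library size after adjustment with TMM factors, and calls are adjusted p under 0.05 in the quasi-likelihood test of edgeR. Srcin1 had 12.8 to 16.6 CPM in the mock and 2244 to 2520 CPM in the p140Cap libraries. The epithelial markers (7 of 8 tested) summed to 5314 to 5714 CPM in the mock and 6261 to 6469 CPM in the p140Cap libraries, with Krt18, Epcam, Cdh1 and Cldn4 called higher, Cldn7 called lower (log2 fold change -0.41) and Krt8 and Cldn3 not called. Markers of fibroblasts summed to 9.996 to 10.59 against 11.4 to 14.24 CPM (4 of 8 genes at 0 reads in all 6 libraries), those of endothelium to 0.21 to 0.50 against 0.48 to 0.73 CPM (1 of 5 at 0), and those of immune cells to 2.08 to 2.34 against 3.23 to 4.09 CPM (3 of 6 at 0, including Ptprc and Cd3e). The markers called among these were all higher, Cd68 of the immune list, which holds nearly all of its sum (log2 fold change 0.83; adjusted p = 0.000119), Col1a1 of the fibroblast list (0.80; adjusted p = 0.000244) and Pecam1 of the endothelial list (1.25; adjusted p = 0.0133). The part of these marker differences in the results was not tested.

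Mitochondrial ribosomal protein transcripts were lower in p140Cap cells for most members. Of the 78 members, 57 were called lower and 3 higher, and 18 were not called. The comparison called 71.1% of all genes tested, 35.9% lower and 35.2% higher, whereas 73.1% of the members were lower and 3.85% higher. The share of members called in either direction (76.9%) was near the background, while the split by direction was 3 higher to 57 lower in the members and 4157 higher to 4231 lower over all genes tested. Their median log2 fold change was -0.29 (p140Cap over mock), with the middle 50% between -0.51 and -0.14, beside a median of -0.00 over all genes tested. The changes were of modest size. A change of at least 1 on the log2 scale was seen in 2 members (2.56%), against 10% of all genes tested.

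**Figure D1:**
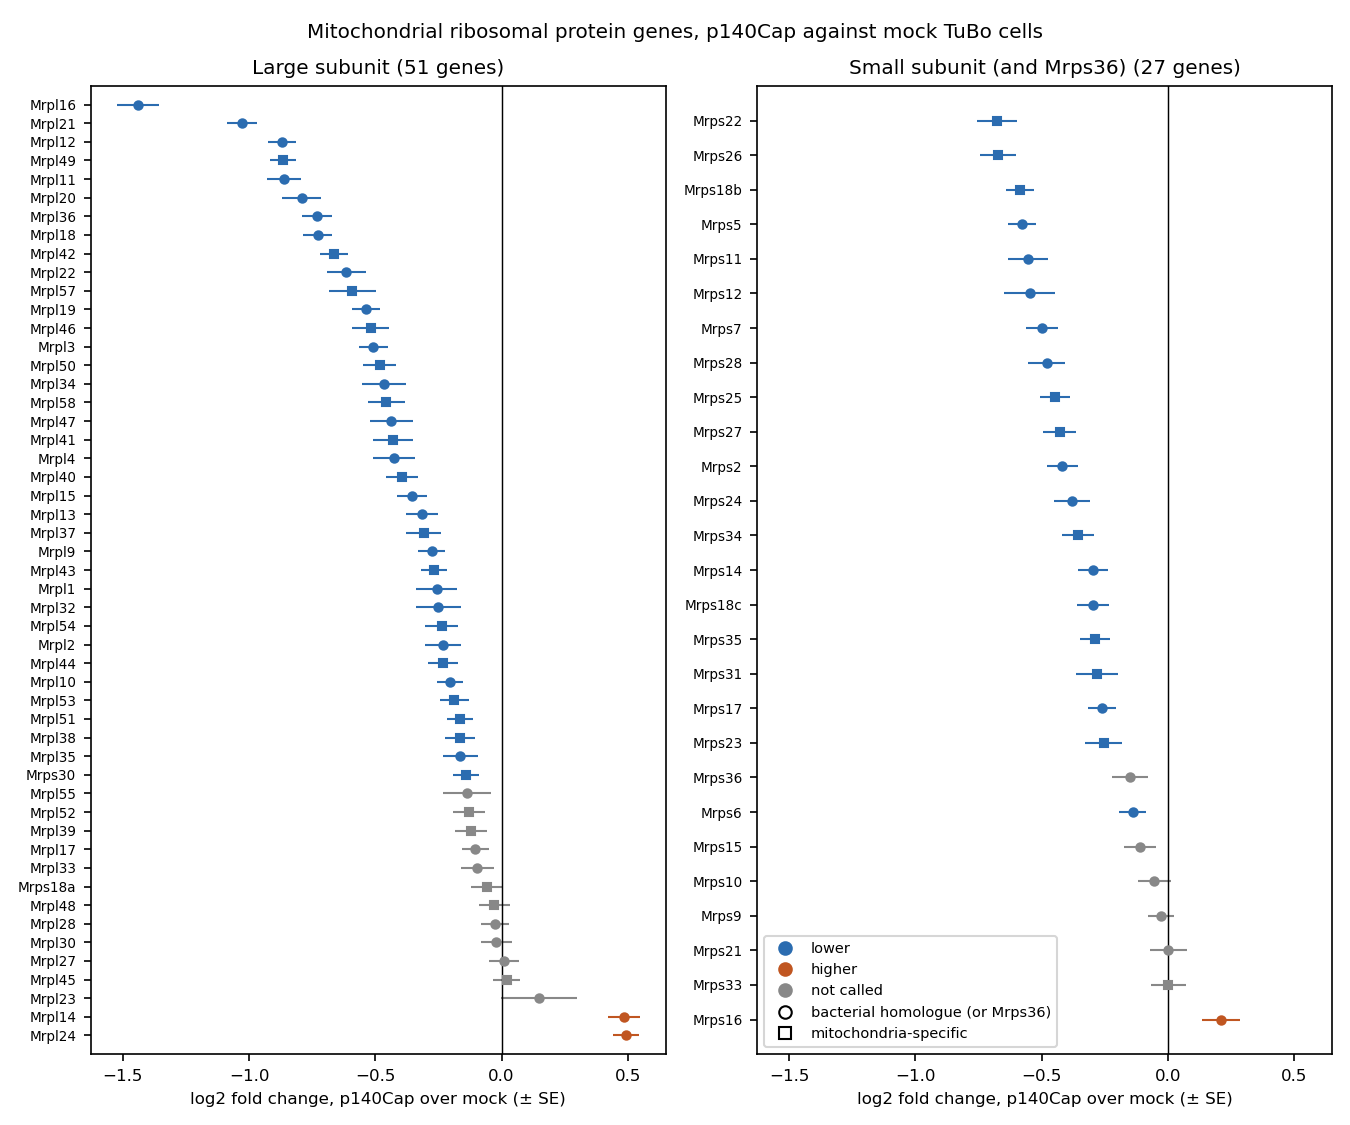
Log2 fold change (p140Cap over mock, horizontal axis) of each of the 78 members with its SE, from 3 libraries a group, with the large subunit on the left and the small subunit with Mrps36 on the right. Blue marks genes called lower, orange genes called higher and grey genes not called, and the points run from -1.44 (Mrpl16) to 0.49 (Mrpl24) with most of them left of 0.

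Summed over all members, the mock libraries held 3276, 3401 and 3454 CPM (3377 ± 91.3, SD, n = 3) and the p140Cap libraries 2746, 2624 and 2829 CPM (2733 ± 103, n = 3). Every p140Cap library lay below every mock library, and the p140Cap mean was 80.9% of the mock mean (78.9% on unadjusted library totals). Members took 0.332% to 0.348% of the reads of a mock library and 0.258% to 0.280% of those of a p140Cap library. The median log2 difference of members from their mock mean was -0.291, -0.37 and -0.235 in the 3 p140Cap libraries, so each of them showed the shift, and between -0.0433 and 0.0263 in the mock libraries.

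Gene by gene, the levels of the groups did not overlap for 60 members. In 57 of them every p140Cap library was below every mock library, and in 3 every p140Cap library was above. Over all genes tested these shares were 37.2% below and 36.3% above. These genes and the called genes were not quite the same set: Mrpl32 and Mrpl35 were called lower although their groups overlapped, and Mrps15 and Mrpl17 were not called although their p140Cap libraries were all lower. The call of Mrpl32 was lost without mock replicate 1 (adjusted p = 0.0557) and without p140Cap replicate 2 (log2 fold change -0.13; adjusted p = 0.151). The call of Mrpl35 was lost without mock replicate 1 or 2, without p140Cap replicate 1 or 2, with DESeq2, with the replicate number as a block and with libraries thinned to 1 depth (adjusted p = 0.0683 to 0.161). In bulk RNA, fewer cells that express a gene and less of its RNA per cell cannot be told apart.

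**Figure D2:**
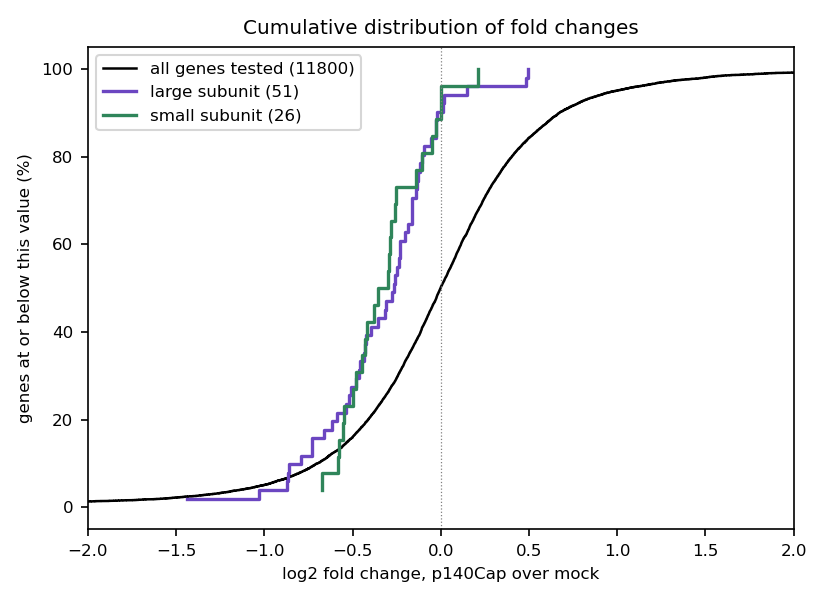
Cumulative share of genes (%, vertical axis) at or below each log2 fold change (horizontal axis, shown from -2 to 2) for the 51 large-subunit members, the 26 small-subunit members and the 11800 genes tested. Both subunit curves lie to the left of the curve of all genes over most of their range, and the medians are -0.27 (large) and -0.33 (small).

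The shift was seen in both subunits. Over all genes tested, 35.9% were called lower and 35.2% higher. In the large subunit 37 of 51 genes were lower and 2 higher (median log2 fold change -0.27), and in the small subunit 20 of 26 were lower and 1 higher (median -0.33). Of the 46 members with a bacterial counterpart, 32 were lower and 3 higher, with a median of -0.30. Of the 31 mitochondria-specific members, 25 were lower and 0 higher, with a median of -0.29. Members with a bacterial counterpart spanned a wider range, from -1.44 to 0.49, than mitochondria-specific members, from -0.87 to 0.02. Mrps36, the gene placed in neither subunit, was at -0.15 and was not called.

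The largest fall was that of Mrpl16 (uL16m, chr19:11770415-11774956 in GRCm38.p6), a large-subunit protein with a bacterial counterpart. Its level was 26.5, 29.1 and 27.0 CPM in the mock and 8.90, 10.9 and 10.7 CPM in the p140Cap libraries. The groups were far apart, and Mrpl16 was 2.71-fold lower in p140Cap cells by the group means (log2 fold change -1.44 ± 0.08, SE; adjusted p = 2.47e-10). Mrpl21 (bL21m, chr19:3282997-3292837) followed, at 45.6, 44.5 and 47.6 CPM in the mock and 23.0, 21.5 and 23.0 CPM in the p140Cap libraries. Its log2 fold change was -1.03 ± 0.06 (adjusted p = 2.94e-10), and these were the 2 members past 1 on this scale.

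Among the proteins of the flexible stalk, which calls translation factors to the ribosome, the fold changes ranged from -0.87 to -0.20 on the log2 scale. Mrpl12, the stalk protein itself, was at 94.1, 93.2 and 104 CPM in the mock and at 54.3, 51.4 and 53.5 CPM in the p140Cap libraries. The p140Cap level was 54.6% of the mock level (log2 fold change -0.87 ± 0.06; adjusted p = 9.23e-10). Mrpl11, at the base of the stalk, was at 47.1, 50.1 and 47.5 CPM against 27.9, 23.4 and 28.2 CPM, a log2 fold change of -0.86 ± 0.07 (adjusted p = 8.48e-09). Mrpl10, which anchors Mrpl12, had the smallest of the 3 fold changes. It was at 64.8, 69.9 and 69.3 CPM against 60.0, 58.6 and 58.3 CPM (log2 fold change -0.20 ± 0.05; adjusted p = 0.00222), and for all 3 genes the groups did not overlap.

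The other large falls were also in the large subunit. Mrpl49, a mitochondria-specific protein, had close replicates, at 68.1, 69.0 and 68.9 CPM in the mock and 37.4, 37.7 and 37.8 CPM in the p140Cap libraries (log2 fold change -0.87 ± 0.05; adjusted p = 2.61e-10). Mrpl20, whose bacterial counterpart binds ribosomal RNA early in assembly, was at 28.9, 32.0 and 30.7 CPM against 19.6, 16.0 and 17.1 CPM (log2 fold change -0.79 ± 0.08; adjusted p = 1.16e-07). Mrpl36, one of the smallest ribosomal proteins, was at 41.5, 43.7 and 44.0 CPM against 27.3, 25.3 and 25.0 CPM (log2 fold change -0.73 ± 0.06; adjusted p = 1.52e-08). In each of these genes all p140Cap libraries were below all mock libraries. Mrpl18 (uL18m) was at 77.8, 80.9 and 78.3 CPM against 50.7, 43.3 and 49.0 CPM (log2 fold change -0.73 ± 0.06; adjusted p = 1.07e-08), again with no overlap.

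**Figure D3:**
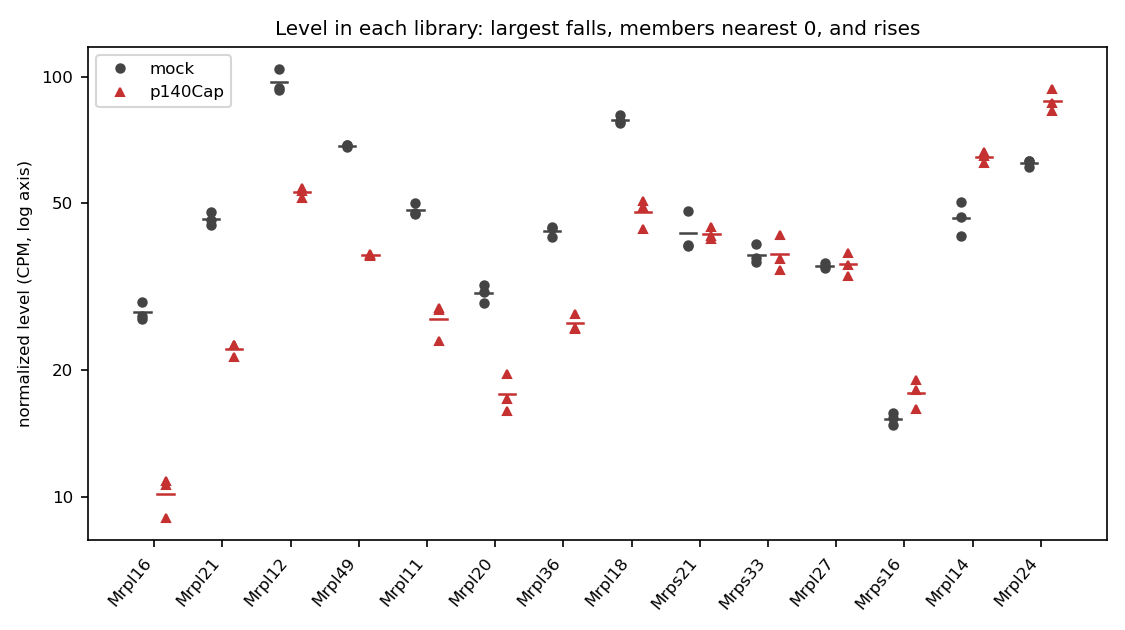
Level of each library in CPM (logarithmic vertical axis) for the 8 members with the largest falls, the 3 nearest 0 and the 3 called higher, with circles for the mock and triangles for the p140Cap libraries and bars at the group means. For the falls the triangles lie below all circles, as for Mrpl16 at 8.90 to 10.9 against 26.5 to 29.1 CPM, for Mrps21, Mrps33 and Mrpl27 they mix, and for Mrps16, Mrpl14 and Mrpl24 they lie above.

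The 3 members that rose all have bacterial counterparts. Mrpl24 (uL24m, chr3:87918131-87923450) was at 60.9, 63.0 and 63.1 CPM in the mock and 86.7, 82.8 and 93.6 CPM in the p140Cap libraries. The p140Cap libraries were all higher (log2 fold change 0.49 ± 0.05; adjusted p = 3.64e-07). Mrpl14 (uL14m, chr17:45685722-45698495), which lies at the interface of the subunits, was at 46.4, 41.9 and 50.3 CPM against 62.4, 64.8 and 66.4 CPM, a log2 fold change of 0.48 ± 0.06 (adjusted p = 3.82e-06). Its groups did not overlap either, although the mock libraries were spread more widely than for Mrpl24.

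Mrps16, a small-subunit protein whose loss causes a defect of mitochondrial translation in patients, rose least. It was at 14.8, 15.4 and 15.8 CPM in the mock and 18.0, 16.1 and 18.9 CPM in the p140Cap libraries (log2 fold change 0.21 ± 0.08; adjusted p = 0.0201). The groups did not overlap, but the gap between them was small. The call was lost without mock replicate 1 (adjusted p = 0.0876), without p140Cap replicate 1 (adjusted p = 0.0692), without p140Cap replicate 3 (adjusted p = 0.118), on unadjusted library totals (adjusted p = 0.05) and with libraries thinned to 1 depth (adjusted p = 0.0752).

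In the small subunit the largest fall was that of Mrps22, a mitochondria-specific protein. It was at 30.3, 33.1 and 34.2 CPM in the mock and 22.7, 18.0 and 20.2 CPM in the p140Cap libraries (log2 fold change -0.68 ± 0.08; adjusted p = 1.11e-06). Mrps12, the protein of the decoding center, was at 17.3, 18.1 and 22.3 CPM against 12.6, 13.2 and 13.3 CPM. Its mock libraries were spread more widely than its p140Cap libraries, without overlap (log2 fold change -0.55 ± 0.10; adjusted p = 0.000122). Mrps34, a mitochondria-specific protein of the small subunit, was at 36.7, 36.1 and 40.0 CPM against 28.1, 29.4 and 30.6 CPM (log2 fold change -0.36 ± 0.06; adjusted p = 9.20e-05), also with no overlap. Among the members described so far, canonical exons of Mrpl21, Mrpl49, Mrpl18, Mrpl24, Mrps22 and Mrps34 overlap those of another protein-coding gene on the opposite strand (Ighmbp2, Syvn1, Tcp1, Mettl25b, Copb2 and Eme2), and since it was not given whether the counting used strand, their values are less certain.

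Of the 3 paralogues that share descent from bacterial S18, 2 were called lower. By their uniform names only Mrps18c was counted above among the members with a bacterial counterpart, and Mrps18a and Mrps18b among the mitochondria-specific ones. Mrps18b, a small-subunit protein, was at 44.7, 46.4 and 47.2 CPM in the mock and 30.6, 29.8 and 31.7 CPM in the p140Cap libraries (log2 fold change -0.58 ± 0.06; adjusted p = 1.00e-07). Mrps18c, which occupies the S18 site of the small subunit and whose exons overlap Helq and Abraxas1 on the opposite strand, was at 30.8, 31.3 and 32.1 CPM against 25.4, 24.3 and 27.0 CPM (log2 fold change -0.30 ± 0.06; adjusted p = 0.000437). Neither gene had overlapping groups. Mrps18a, which despite its name sits in the large subunit, was at 28.7, 30.5 and 31.6 CPM against 27.6, 30.0 and 29.5 CPM, with overlapping groups and no call (log2 fold change -0.06 ± 0.06; adjusted p = 0.438). The differences between the paralogues themselves were not tested.

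Mrps30, the other protein with a small-subunit symbol that belongs to the large subunit, was at 56.3, 58.8 and 58.0 CPM in the mock and 52.9, 53.7 and 50.3 CPM in the p140Cap libraries. The groups did not overlap and the log2 fold change was -0.14 ± 0.05 (adjusted p = 0.0221). This call was lost without mock replicate 2 (adjusted p = 0.0603) and without p140Cap replicate 3 (adjusted p = 0.0978).

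The next genes, all of the large subunit, were picked for their roles. Mrpl3, which reaches towards the peptidyl transferase center, was at 58.9, 59.6 and 57.2 CPM in the mock and 43.9, 38.0 and 41.7 CPM in the p140Cap libraries (log2 fold change -0.51 ± 0.06; adjusted p = 7.25e-07). Mrpl58, a peptidyl-tRNA hydrolase that has become part of the ribosome, was at 37.3, 39.4 and 42.0 CPM against 29.5, 25.5 and 31.4 CPM (log2 fold change -0.46 ± 0.07; adjusted p = 3.26e-05). Both had groups without overlap. Mrpl44, a protein with a ribonuclease III fold, was at 35.1, 38.6 and 35.7 CPM against 30.8, 31.2 and 31.1 CPM (log2 fold change -0.23 ± 0.06; adjusted p = 0.00260). By contrast Mrpl45, which faces the inner membrane at the tunnel exit, was at 53.6, 55.1 and 53.1 CPM against 55.9, 52.1 and 56.0 CPM. These groups overlapped and the gene was not called (log2 fold change 0.02 ± 0.05; adjusted p = 0.744).

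The members nearest 0 were Mrps21, Mrps33 and Mrpl27. Mrps21 was at 39.6, 39.9 and 47.8 CPM in the mock and 41.9, 41.1 and 44.0 CPM in the p140Cap libraries (log2 fold change 0.00 ± 0.07; adjusted p = 0.975). Mrps33 was at 36.2, 40.1 and 36.9 CPM against 36.8, 34.6 and 41.9 CPM (log2 fold change 0.00 ± 0.07; adjusted p = 0.972). Mrpl27, whose bacterial counterpart reaches into the peptidyl transferase center, was at 35.4, 35.0 and 36.1 CPM against 33.5, 35.7 and 38.0 CPM (log2 fold change 0.01 ± 0.06; adjusted p = 0.890). In all 3 the libraries of the groups were intermixed. Canonical exons of Mrpl27 overlap those of Eme1 on the opposite strand, so its value is less certain too.

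Levels between members were compared per kilobase of the canonical transcript in GENCODE vM39. The median canonical transcript was 1812 bases long for members and 3458.5 bases for all genes tested. In the mock libraries the highest mean levels were those of Mrpl42 (77.9 CPM per kilobase), Mrps21 (76.4) and Mrpl33 (72.7), and the lowest those of Mrpl1 (5.36), Mrpl23 (4.67) and Mrpl55 (3.89). The canonical transcripts of Mrpl1 (4277 bases) and Mrpl55 (3827 bases) are long for members, so their place at the bottom rests in part on that choice of transcript. In p140Cap cells Mrpl42 was at 49.1 CPM per kilobase, below Mrps21 (76.3), Mrpl33 (68.0), Mrpl13 (53.7), Mrpl28 (52.7) and Mrpl53 (49.5).

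Of these genes, Mrpl42, a mitochondria-specific protein, changed most. It was at 58.7, 61.2 and 61.1 CPM in the mock and 39.3, 35.4 and 39.4 CPM in the p140Cap libraries, without overlap (log2 fold change -0.66 ± 0.06; adjusted p = 2.23e-08). Mrpl1 was at 21.2, 24.7 and 22.9 CPM against 20.7, 17.1 and 19.5 CPM (log2 fold change -0.26 ± 0.08; adjusted p = 0.0102). Its groups were separated by a narrow gap, and the call was lost without p140Cap replicate 2 (adjusted p = 0.0663) and with thinned libraries (adjusted p = 0.0505). Mrpl33 (log2 fold change -0.10 ± 0.06; adjusted p = 0.191), Mrpl55 (-0.14 ± 0.09; adjusted p = 0.205) and Mrpl23 (0.15 ± 0.15; adjusted p = 0.382) were not called. Mrpl23 had as few as 44 reads in a library, whereas each of the other members had at least 135 reads in every library, so a change in Mrpl23 was the hardest to detect.

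The members lay on 17 chromosomes, and the 5 on chromosome 19 (Mrpl16, Mrpl21, Mrpl49, Mrpl11 and Mrpl43) were all lower (median log2 fold change -0.87). Mrpl43, a mitochondria-specific protein, was at 47.9, 47.5 and 49.97 CPM in the mock and 39.5, 40.2 and 41.0 CPM in the p140Cap libraries (log2 fold change -0.27 ± 0.05; adjusted p = 0.000254). Of the 73 members on other chromosomes 71.2% were lower and 4.11% higher, with a median of -0.28, so the direction of the members' change was also seen without chromosome 19. Of the 408 other tested genes placed on chromosome 19, 64.2% were lower and 12.3% higher, with a median of -0.33. The part of the chromosome in the values of these 5 members was not tested.

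Many members start head to head with another gene. By RefSeq starts in GRCm38.p6, 25 of the 69 members with a listed promoter (36.2%) had a gene on the opposite strand starting within 1000 bases upstream or overlapping it by at most 200 bases, compared with 14.4% of 9016 other tested protein-coding genes. Mrpl46 and Mrps11, which encode 1 protein of each subunit, start 42 bases apart and were both lower. Mrpl46 had a log2 fold change of -0.52 ± 0.07 (adjusted p = 9.68e-06) and Mrps11 one of -0.55 ± 0.08 (adjusted p = 1.10e-05).

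The other 23 partners are not mitochondrial ribosomal protein genes, and 15 of them were lower, 4 higher and 4 not called (median log2 fold change -0.28). Of all genes tested, 35.9% were lower and 35.2% higher. Sars2, the mitochondrial seryl-tRNA synthetase, shares its promoter region with Mrps12 and was at -0.83 ± 0.10 (adjusted p = 8.03e-07). Twnk, the mitochondrial DNA helicase opposite Mrpl43, was at -0.17 ± 0.06 (adjusted p = 0.0236). Tmem63b, opposite Mrpl14, rose as Mrpl14 did (0.28 ± 0.05; adjusted p = 0.000186).

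Some pairs moved apart. Klc4, a kinesin light chain opposite Mrpl2, rose by 0.99 ± 0.07 on the log2 scale (adjusted p = 3.01e-09) whereas Mrpl2 was at -0.23 ± 0.07 (adjusted p = 0.00842). Pnpla7, opposite Mrpl41, rose by 0.62 ± 0.09 (adjusted p = 1.09e-05) whereas Mrpl41 was at -0.43 ± 0.08 (adjusted p = 0.000133). In 16 of the 21 pairs listed for members that were lower, the partner was lower too, counting the pair of Mrpl46 and Mrps11 from both sides. Exons of the canonical transcripts of 11 pairs overlap on opposite strands, among them Mrpl2 with Klc4 and Mrpl21 with Ighmbp2, so reads from such stretches carry the same uncertainty.

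**Figure D4:**
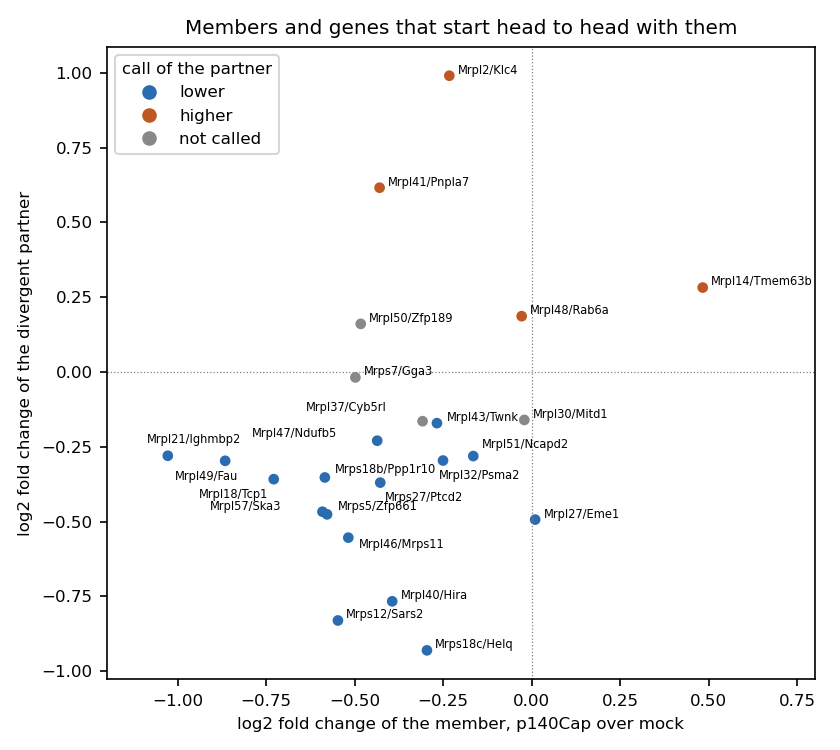
Log2 fold change of members (horizontal axis) against that of the gene that starts head to head with them (vertical axis), with 1 point for each pair, named member first, and colored by the call of the partner. Most pairs lie in the lower left, Mrpl14 with Tmem63b lies in the upper right, and Mrpl2 with Klc4 (partner at 0.99) and Mrpl41 with Pnpla7 (0.62) lie in the upper left.

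Promoter windows of 250 bases before to 50 bases after the RefSeq start were searched on both strands for short motifs that bind known regulators of nuclear genes for mitochondria. TGCGCA, the core of the site of nuclear respiratory factor 1, was in 30.4% of the 69 member windows, in 8.1% of all 27025 windows and in 15.0% of the 9117 windows of tested genes. CCGGAAG, bound by ETS factors such as GABP, was in 36.2%, 9.1% and 19.3% of these windows. AAGATGGC, the site of YY1, was in 17.4%, 2.9% and 5.0%. Each of these 3 motifs was more frequent in member windows than in those of tested genes.

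GGGCGG (the GC box) was in 49.3% of member windows, 35.9% of all windows and 66.0% of those of tested genes, CACGTG (the E-box) in 7.2%, 7.2% and 10.3%, and TATAA in 13.0%, 25.5% and 12.1%. Of the members with a motif, 15 of 21 with TGCGCA were lower, 17 of 25 with CCGGAAG, 11 of 12 with AAGATGGC, 24 of 34 with GGGCGG, 5 of 5 with CACGTG and 6 of 9 with TATAA, where 35.9% of all genes tested were lower. Of the members without it, 33 of 48, 31 of 44, 37 of 57, 24 of 35, 43 of 64 and 42 of 60 were lower, in the same order. Median log2 fold changes with and without the motif were -0.25 and -0.30 for TGCGCA, -0.30 and -0.27 for CCGGAAG, -0.46 and -0.26 for AAGATGGC, -0.28 and -0.28 for GGGCGG, -0.31 and -0.26 for CACGTG, and -0.38 and -0.27 for TATAA. None of these differences was tested. A match is a run of letters and not a measured binding site.

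Shown here are the windows of Mrps11 and Mrps12, which also hold the start of the head-to-head partner, of Mrpl36, a member with a large fall, and of Mrps16, a member that rose. Capitals mark matches to TGCGCA, which reads the same on both strands, to CCGGAAG, which reads CTTCCGG on the opposite strand, and to AAGATGGC, which reads GCCATCTT there. No marked match overlaps another. They lie at chr7:78782881-78783180 (plus strand), chr7:28741772-28742071 (minus), chr13:73330759-73331058 (plus) and chr14:20393441-20393740 (minus) in GRCm38.p6, from RefSeq. Windows follow the starts in the RefSeq promoter table, and the first listed window was used where a gene has several. For 21 of the 69 members with a window, and for 7 of the 25 with a head-to-head gene, the listed start nearest the 5′ end still lies inside the gene span. The window of Mrpl36 starts from a site 2506 bases inside the span, and that of Mrps16 from one 144 bases inside, while another listed start of Mrps16 is at the 5′ end.
Mrps11: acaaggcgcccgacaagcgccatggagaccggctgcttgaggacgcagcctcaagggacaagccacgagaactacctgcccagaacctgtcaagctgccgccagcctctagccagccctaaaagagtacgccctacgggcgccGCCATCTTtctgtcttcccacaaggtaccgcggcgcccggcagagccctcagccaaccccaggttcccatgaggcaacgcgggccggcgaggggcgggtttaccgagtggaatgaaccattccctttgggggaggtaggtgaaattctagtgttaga
Mrps12: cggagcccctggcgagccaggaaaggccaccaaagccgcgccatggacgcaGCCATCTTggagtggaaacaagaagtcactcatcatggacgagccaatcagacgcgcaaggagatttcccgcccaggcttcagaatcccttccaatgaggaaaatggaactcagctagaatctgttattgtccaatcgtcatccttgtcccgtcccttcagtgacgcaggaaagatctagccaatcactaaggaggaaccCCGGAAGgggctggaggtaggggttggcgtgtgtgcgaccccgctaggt
Mrpl36: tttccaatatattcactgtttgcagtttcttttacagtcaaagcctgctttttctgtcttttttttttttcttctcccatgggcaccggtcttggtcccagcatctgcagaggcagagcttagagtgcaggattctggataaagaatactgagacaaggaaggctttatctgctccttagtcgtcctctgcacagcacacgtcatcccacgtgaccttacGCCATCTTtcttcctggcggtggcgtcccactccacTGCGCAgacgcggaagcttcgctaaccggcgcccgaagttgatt
Mrps16: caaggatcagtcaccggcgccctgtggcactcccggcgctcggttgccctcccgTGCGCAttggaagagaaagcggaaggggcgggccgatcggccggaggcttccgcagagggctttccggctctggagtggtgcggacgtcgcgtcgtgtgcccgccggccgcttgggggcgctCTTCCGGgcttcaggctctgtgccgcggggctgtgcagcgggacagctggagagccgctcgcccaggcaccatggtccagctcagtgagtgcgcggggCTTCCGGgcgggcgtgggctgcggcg

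The windows were picked as examples and show no pattern over the members. Mrps11 and Mrpl36 hold AAGATGGC on the opposite strand, Mrps12 holds it together with CCGGAAG, and Mrpl36 also holds TGCGCA just after the start used for its window. Mrps16 holds TGCGCA and 2 copies of CCGGAAG on the opposite strand. Among the factors that bind these sites, Nrf1 was at 52.2, 49.3 and 50.2 CPM in the mock and 34.8, 35.3 and 35.6 CPM in the p140Cap libraries, without overlap (log2 fold change -0.52 ± 0.05; adjusted p = 2.14e-07). Gabpa (0.08 ± 0.05; adjusted p = 0.174), Gabpb1 (-0.02 ± 0.06; adjusted p = 0.783) and Yy1 (-0.05 ± 0.05; adjusted p = 0.398) were not called.

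Other genes of mitochondrial gene expression were taken as lists, whose shares stand beside 71.1% called, 35.9% lower and 35.2% higher over all genes tested. Of the mitochondrial ribosomal proteins under other symbols, 5 were in the table under the listed symbols, and 3 of these (60%) were lower and 0 higher (median log2 fold change -0.26). Ptcd3 (small subunit) was at -0.62 ± 0.05 (adjusted p = 2.58e-08), Chchd1 at -0.55 ± 0.07 (adjusted p = 2.73e-06) and Gadd45gip1 at -0.26 ± 0.09 (adjusted p = 0.0135). Dap3, a GTP-binding protein of the small subunit, was not called (0.04 ± 0.05; adjusted p = 0.496).

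Of 25 mitoribosome assembly genes tested, 14 (56%) were lower and 2 (8%) higher (median -0.18), with 64% called. Noa1, a GTPase, was at 28.3, 30.1 and 29.4 CPM in the mock and 14.5, 18.5 and 12.9 CPM in the p140Cap libraries, with no overlap (log2 fold change -0.93 ± 0.09; adjusted p = 1.39e-07). C1qbp, a matrix protein that binds RNA, was at -0.80 ± 0.05 (adjusted p = 5.63e-10), and Mterf3 was at -0.74 ± 0.09 (adjusted p = 2.04e-06). The genes that rose encode methyltransferases of mitochondrial ribosomal RNA, Mrm1 (0.35 ± 0.08; adjusted p = 0.00121) and Mettl15 (0.34 ± 0.09; adjusted p = 0.00185).

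Of 15 genes for translation factors and regulators of mitochondrial mRNA, 8 (53.3%) were lower and 1 (6.67%) higher (median -0.17), with 60% called. Tsfm, the exchange factor of the mitochondrial elongation factor Tu, was at -0.77 ± 0.08 (adjusted p = 1.40e-07), Taco1, an activator of translation of a cytochrome oxidase subunit, at -0.71 ± 0.10 (adjusted p = 5.86e-06), and Lrpprc, which stabilizes mitochondrial mRNA, at -0.68 ± 0.05 (adjusted p = 4.90e-09). Oxa1l, the insertase of the inner membrane that receives nascent chains from the ribosome, rose by 0.25 ± 0.05 (adjusted p = 0.000278).

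Of 17 mitochondrial tRNA synthetase genes, 9 (52.9%) were lower and 1 (5.88%) higher (median -0.14), and the share called, 58.8%, was under that of all genes. Yars2 was at -0.84 ± 0.07 (adjusted p = 7.74e-09), Sars2 as given above, and Mars2 at -0.80 ± 0.08 (adjusted p = 1.42e-07), for the tyrosine, serine and methionine enzymes. Fars2, for phenylalanine, rose by 0.32 ± 0.08 (adjusted p = 0.00120). Lars2 varied widely within groups, at 327, 439 and 177 CPM in the mock and 270, 318 and 421 CPM in the p140Cap libraries, and was not called (adjusted p = 0.705).

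Of 13 genes for mitochondrial transcription and its regulators, 9 (69.2%) were lower and 1 (7.69%) higher (median -0.30), with 76.9% called. Pprc1, a coactivator of the PGC-1 family, had the largest change of all listed genes, at 82.6, 84.7 and 79.2 CPM in the mock and 20.8, 22.1 and 20.6 CPM in the p140Cap libraries. Its log2 fold change was -1.96 ± 0.06 (adjusted p = 2.03e-13) and the groups were far apart. Ppargc1b was at -0.85 ± 0.22 (adjusted p = 0.00237), and Myc, which drives genes of ribosome production, was at -0.73 ± 0.06 (adjusted p = 8.18e-09). Ppargc1a moved the other way, at 48.5, 49.6 and 46.2 CPM in the mock and 75.0, 70.4 and 73.4 CPM in the p140Cap libraries (0.60 ± 0.05; adjusted p = 2.61e-08), with no overlap. The mitochondrially encoded genes listed were not analysed here.

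**Figure D5:**
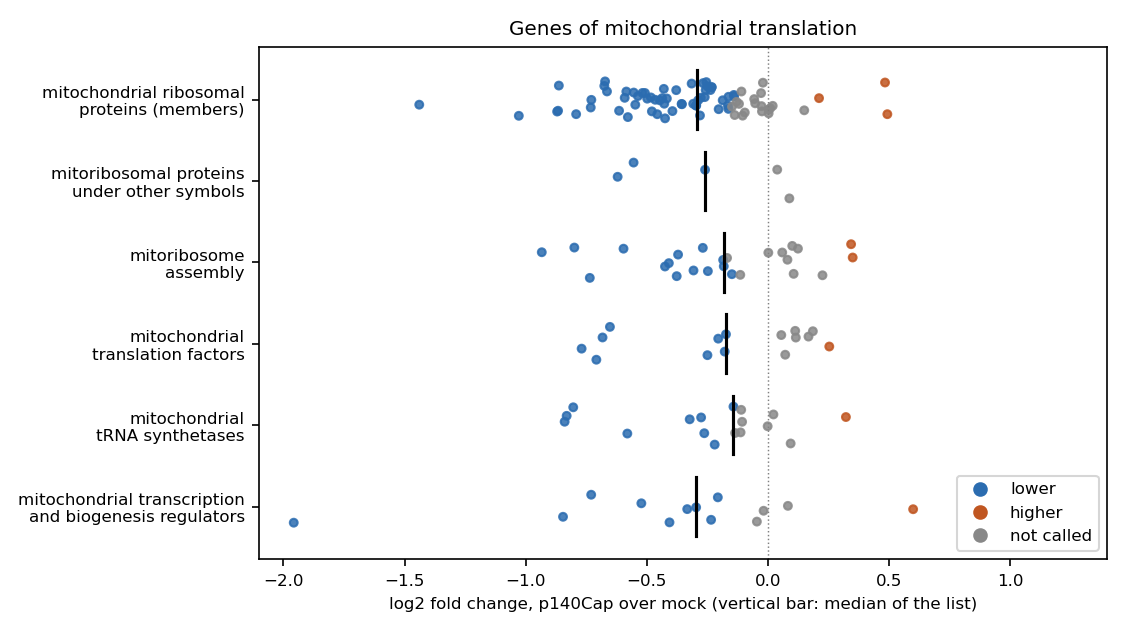
Log2 fold change (horizontal axis) of each tested gene of the members and of 5 lists of mitochondrial gene expression, colored by call, with a vertical bar at the median of each list. The medians run from -0.30 to -0.14, the lowest point is Pprc1 (-1.96) and the highest is Ppargc1a (0.60).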

How the data were processed

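RNA-Seq was carried out on 3 mock and 3 p140Cap libraries of TuBo cells, prepared with a stranded kit after poly(A) selection and sequenced on an Illumina NextSeq instrument. The submitters' processing notes name STAR 2.5, RSEM and the build mm10, while the paper names another build, and the annotation release was not given. The authors deposited counts, whole numbers of reads per gene and library, without normalization and with replicates apart.

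Counts were analysed in R 4.3.3 with edgeR 4.0.16: TMM factors, filterByExpr by group, glmQLFit and glmQLFTest with condition as the only term, and Benjamini-Hochberg adjustment over the 11800 genes tested. SE was obtained from each fold change and its F statistic, as the size of the first over the root of the second. CPM used TMM-adjusted library sizes. The script was tested on simulated counts of this comparison: edgeR recovered 98% of 200 changed genes among 11728, and 4.41% of its calls were unchanged genes. The real comparison called 8388 of 11800 genes. The simulation changed far fewer, so it cannot show how calls behave under so broad a change. Library totals ranged from 13770385 to 75506562, and the common biological coefficient of variation was 4.57%. The mean chi-square value between libraries of 1 group was 1.75 to 10.7, where sampling noise gives 1, so none was a copy of another.

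Positions, gene starts and promoter windows came from RefSeq tables of GRCm38.p6; all 78 members matched a position by symbol and 69 a window. Transcript lengths and exons came from GENCODE vM39 by Ensembl ID, as lengths and overlaps only. Of the 78 members, 42 have canonical exons that overlap those of another gene, 38 on the other strand and 5 on the same strand (Mrps6 with Slc5a3, for example).

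Members and lists were chosen with earlier results of these data known. A listed immune marker is not reported here. Members named are those called with the 8 largest falls and up to 8 largest rises, the 3 nearest 0, the 3 highest and 3 lowest per length, those on chromosome 19 and a list chosen for role, with up to 3 called genes of each list by size of change, and Srcin1. Other genes named, such as Nrf1, Gabpa, Gabpb1, Yy1, Ppargc1a, Oxa1l, Fars2, Lars2, Dap3, Mrm1, Mettl15, Mrps36, Mrpl2, Mrpl41, Mrpl46, Mrps11 and partners of divergent pairs, were chosen after their values were seen. Alternatives were DESeq2 1.42.0, limma-voom 3.58.1, RLE and upper-quartile factors, library totals, no filter, at least 10 reads in every library, each library left out, a replicate block and libraries thinned to the smallest total.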

Additional observations from a re-analysis of the deposited data

How the results depend on the processing

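Members called lower outnumbered those called higher under every alternative run, with 53 to 62 lower, 2 to 3 higher and 56 to 64 called. Over all genes, the same fits called 7851 to 8716 of 11209 to 15860 tested. Of these, 3951 to 4679 were lower and 3832 to 4168 higher. Without 1 library at a time, 56 to 60 members were called (53 to 58 lower, 2 to 3 higher), the median log2 fold change of members was -0.32 to -0.27, and 7851 to 8253 of all genes were called. Of the 78 members, 58 kept their call and direction under all alternatives (50 lower, 2 higher, 6 not called), 8 called members lost the call at least once (Mrps16, Mrps30, Mrpl1, Mrpl32, Mrpl35, Mrpl38, Mrps6 and Mrps31), and 5 gained one. On library totals the median of all genes was -0.04 and the number of members called 64. There, 8394 of 11800 genes tested were called (4562 lower, 3832 higher). The replicate numbers did not pair the libraries (correlations of same-numbered deviations -0.0299, -0.106 and -0.0573), and with a replicate block 58 members were called (3 higher, 55 lower) and 8034 of all genes.

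Signs changed under at least 1 alternative for 7 members, of which 0 were called, and the cause was not tested. Beside the members given here these were Mrpl30 and Mrpl48, which reached 0.03261 and 0.02663 without p140Cap replicate 2. On library totals the log2 fold changes were -0.034 for Mrps21, -0.03423 for Mrps33, -0.02725 for Mrpl27 and -0.01735 for Mrpl45; without a filter they were -0.027, -0.02748, -0.02042 and -0.01055. With at least 10 reads in every library Mrps21 was at -0.003402 and Mrps33 at -0.003191, with thinned libraries Mrps21 was at -0.02719 and Mrpl27 at -0.04087, with DESeq2 Mrps21 was at -5.411e-05, and with the replicate block Mrps33 was at -1.075e-05. Without 1 library the ranges were -0.04999 to 0.08609 for Mrps21, -0.0794 to 0.06051 for Mrps33, -0.03901 to 0.05274 for Mrpl27, -0.00102 to 0.05156 for Mrpl45 and -0.03302 to 0.2667 for Mrpl23. The mock libraries were all deeper than the p140Cap libraries, and thinning them to the smallest total left 56 members called (54 lower, 2 higher). Over all genes, the thinned libraries gave 7899 of 11477 called (3971 lower, 3928 higher).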
